A study of Mus musculus with 12 samples.

Results

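The 10 genes described here encode the D-type cyclins (Ccnd1, Ccnd2, Ccnd3), the kinases they activate (Cdk4, Cdk6), the retinoblastoma or pocket proteins that those kinases phosphorylate (Rb1, Rbl1, Rbl2) and the repressor E2F factors that bind the pocket proteins (E2f4, E2f5). They were taken from the count table by gene symbol, and all 10 were found among its 23420 genes. The libraries came from the hard palate of 6 FVB mice, all with the genotype K5-tTA (+/-); tetO-H2B-GFP (+/-). Here the promoter of keratin 5 makes basal cells produce the tTA transactivator, which switches on a fusion of histone H2B and GFP. Doxycycline stops new synthesis of the fusion, and after 14 days of it CD49f-positive cells (CD49f is integrin α6, carried by basal keratinocytes) were sorted into GFP-HI and GFP-LO, which the labels call infrequently and frequently dividing. Each mouse gave 1 library of each fraction, so there were 6 GFP-HI and 6 GFP-LO libraries. The mice are called by the codes in the labels: B1M, B3M, B4M, B5M and B7M were 49 days old and B7F was 71 days old. Both fractions share the transgenes, the doxycycline and the integrin gate. The reporter marks only cells with an active keratin 5 promoter, and no library was made before the chase.

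D cyclins are the link between growth signals and the cell cycle: their genes are switched on by mitogens, and the proteins bind and activate CDK4 or CDK6. The active kinases phosphorylate the pocket proteins, which otherwise hold E2F factors and keep the genes of DNA replication silent. E2F4 and E2F5, together with the pocket proteins p107 (Rbl1) and p130 (Rbl2), occupy those genes as repressors in resting cells. In stratified epithelia this step is taken in the basal layer, where cyclin D1 is a familiar marker of the proliferative compartment. Much of the control falls on protein level and phosphorylation, which RNA counts do not measure.

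The 3 D cyclins share a short stretch near the amino terminus, the LxCxE motif, with which they bind the pocket proteins. The first 36 coding bases of each are shown to place the physical link between the cyclins and the retinoblastoma family, and capitals mark the codons of the motif. They were read from GENCODE M21 transcripts of GRCm38, the assembly that mm10 also names. The motif covers codons 5 to 9 of Ccnd1 (chr7:144939658-144939693, minus strand) and codons 3 to 7 of Ccnd2 (chr6:127150738-127150773, minus strand) and Ccnd3 (chr17:47593655-47593690, plus strand).
Ccnd1: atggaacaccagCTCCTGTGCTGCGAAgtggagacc
Ccnd2: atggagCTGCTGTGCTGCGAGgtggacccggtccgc
Ccnd3: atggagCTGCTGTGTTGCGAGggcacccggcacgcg

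The libraries held 6678444 to 10547665 counts each, of which the 45S pre-ribosomal RNA gene Rn45s took 31.5% to 59.8%. B1M and B3M stood apart in that their GFP-HI libraries detected the fewest genes, 12312 and 12810 (up to 19023 elsewhere), so values without those 2 mice are given below. Basal keratinocyte markers (8 of 8 detected, among them Krt5, Krt14, Trp63 and Itga6) summed to 15371 to 24105 CPM (a count relative to the size of its library, with TMM normalisation factors) in GFP-HI and 18277 to 25092 CPM in GFP-LO. This sum was higher in GFP-HI in only 1 of 6 mice, with means of 20341 and 21917 CPM (exact sign-flip permutation p = 0.125). Most of it was Krt14 and Krt5, with means of 10198 and 5194 CPM in GFP-HI. Krt15, alone of the 8, had a higher mean in GFP-HI, 558.6 against 467.3 CPM. Markers of the layers above were present too, the 9 of the suprabasal list summing to 1219 to 3688 CPM in GFP-HI and 1296 to 2578 CPM in GFP-LO (exact sign-flip permutation p = 0.75). Most of this was Krt76 (658.7 to 2067 CPM) and Krt13 (134.6 to 1283 CPM), keratins of oral epithelium, while Krt10 had 13.3 to 321.1 CPM and Ivl was at 0 in 9 libraries. The Merkel cell list summed to 39.8 to 69.1 CPM, the immune list to 0.377 to 30.6, the melanocyte list to 7.13 to 18.2, the endothelial list to at most 6.85 and the Schwann cell list to at most 2.66 CPM. Most of the Merkel sum was Sox2 (30.0 to 58.0 CPM) and Isl1 (4.30 to 21.4 CPM). Krt20 and Atoh1 of that list reached at most 0.433 and 0.922 CPM and were at 0 in 5 and 7 libraries. In bulk samples of sorted cells, fewer cells that express a gene and less RNA of it per cell cannot be told apart.

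None of the 10 genes passed the test between the fractions (edgeR quasi-likelihood test with mouse as a block, Benjamini-Hochberg adjusted p under 0.05 over 11719 genes). Of all tested genes 55 were called higher in GFP-HI, or 0.469%, and 7 were called lower, or 0.0597%, and 0 of 10 is a share near that background. At an unadjusted p under 0.05 the count was 2 of 10, Ccnd1 and Ccnd2, beside 848 of the 11719 genes. DESeq2 called 1 of the 10, Ccnd1, as lower, beside 120 higher and 23 lower among all 11719 genes. It gave some genes no adjusted p, E2f5 among them, and these could not be called. The log2 fold change, GFP-HI over GFP-LO, was positive for 4 members and negative for 6, with a median of −0.17 (all tested genes −0.02, with 46.9% positive). The ranges of the fractions overlapped for every member. The share of all tested genes with such overlap was not computed, so nothing about the members is read from it.

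Ccnd1, the cyclin most tied to proliferation in keratinocytes (chr7, 144929931 to 144939925), had the smallest p of the 10. Its level in GFP-HI and GFP-LO cells was 45.2 and 57.7 CPM in B1M, 65.9 and 86.1 in B3M, 57.3 and 68.2 in B4M, 56.6 and 71.1 in B5M, 40.8 and 63.7 in B7F, and 64.5 and 98.4 in B7M. In each of the 6 mice the GFP-HI library held less Ccnd1 than its GFP-LO partner, although the fractions overlapped because mice with high levels were high in both. The means were 55.1 ± 10.1 and 74.2 ± 15.2 CPM (SD, n = 6 each), from 310 to 1002 counts per library. On the log2 scale the fold change was −0.43 ± 0.10 SE (95% interval −0.64 to −0.22), which makes GFP-LO 1.35 times GFP-HI. Its edgeR p was 6.6e-04, the 83rd smallest of all genes, and its adjusted p was 0.0936, so the difference did not pass. The adjusted p was 0.0212 with DESeq2, 0.039 with no filter on low counts, 0.0456 without B1M and 0.0285 without B1M and B3M, and 0.169 to 0.501 when any other mouse was left out. Across all of these settings the log2 fold change lay between −0.47 and −0.39.

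Among the marker lists, the summed fibroblast list was also lower in GFP-HI in every mouse. All 8 of its genes were detected, and the sum ranged from 255.1 to 475.7 CPM in GFP-HI and from 358.8 to 618.8 CPM in GFP-LO (6 of 6 mice, exact two-sided sign-flip permutation p = 0.03125, the smallest that 6 pairs can give). Dcn alone, which encodes the matrix proteoglycan decorin, set this difference, with means of 326.8 and 456.0 CPM. The other 7 of the 8 had higher means in GFP-HI, the opposite of Ccnd1, at 3.07 CPM or less (the mean of Vim). Of these the collagen genes Col1a1 and Col1a2 had means of 2.88 and 2.60 CPM in GFP-HI against 0.878 and 0.852 CPM in GFP-LO, and Lum was at 0 in 9 libraries. The Schwann list was also not higher in GFP-HI in any mouse (0 to 0.922 against 0 to 2.66 CPM, exact sign-flip p = 0.0625). The part of either list in the Ccnd1 values was not tested.

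**Figure D1:**
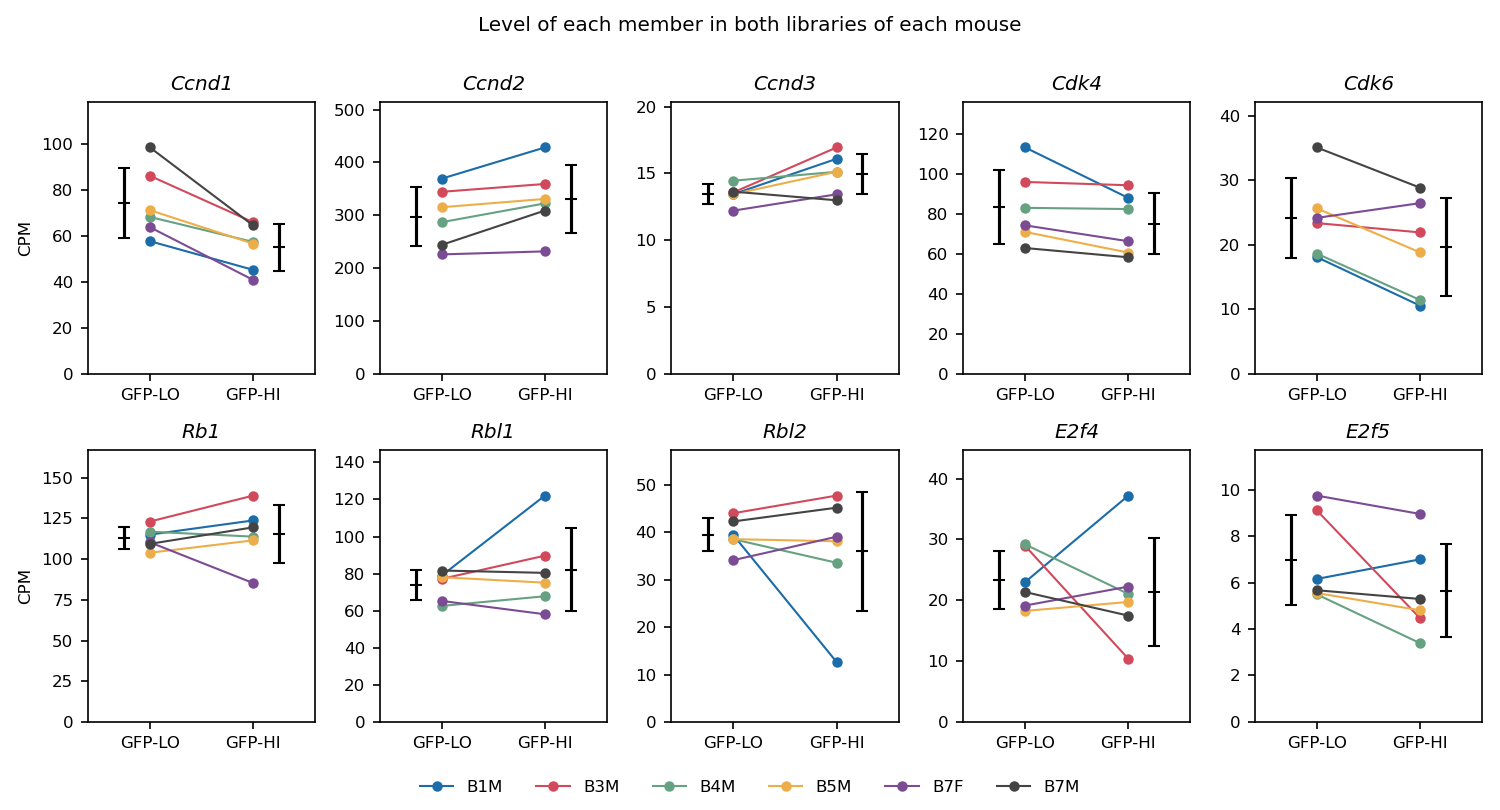
CPM (TMM-normalised) of the 10 genes in the GFP-HI and GFP-LO library of each mouse, with a line joining the libraries of a mouse. Ccnd1 and Cdk4 lines run the same way in 6 of 6 mice (lower in GFP-HI), Ccnd2 lines run higher in GFP-HI in 6 of 6, and the low Rbl2 point of B1M (12.6 CPM) and low E2f4 point of B3M (10.4 CPM) are single GFP-HI libraries.

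Ccnd2 (chr6, 127125709 to 127151048), the D cyclin with most transcripts here, leaned the other way. GFP-HI and GFP-LO cells had 428 and 369 CPM in B1M, 359 and 344 in B3M, 323 and 287 in B4M, 331 and 315 in B5M, 232 and 226 in B7F, and 309 and 244 in B7M. GFP-HI was the higher library in each of the 6 mice, by little in B3M, B5M and B7F, and in 5 of 6 when counts were scaled to totals without Rn45s and with no TMM factors. The means were 330.3 ± 64.4 and 297.7 ± 56.2 CPM (SD, n = 6), and the log2 fold change was 0.15 ± 0.07 SE (95% interval 0.00 to 0.29, edgeR adjusted p = 0.68). Mice differed more than fractions did: the mean of B1M was 1.74 times that of B7F.

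Ccnd3 (chr17, 47505051 to 47599688), the third D cyclin, was sparse, with 100 to 158 counts per library. It ranged from 13.0 to 16.9 CPM in GFP-HI and from 12.2 to 14.4 CPM in GFP-LO, and was higher in GFP-HI in 5 of 6 mice, B7M being the exception. Its fold change on the log2 scale was 0.15 ± 0.18 SE (95% interval −0.24 to 0.54, edgeR adjusted p = 0.882), which leaves room for a difference larger than that of Ccnd2. It was also the steadiest member between mice, the highest mouse being 1.18 times the lowest. Of its exonic bases, 358 (15.8%) overlap Bysl on the opposite strand. The strand setting of the counting is not given, so reads there could belong to either gene.

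Relative to each other, Ccnd2 and Ccnd1 differed the same way in every mouse. Per kilobase of exon, Ccnd2 stood at 4.04 ± 1.10 times Ccnd1 in GFP-HI against 2.75 ± 0.850 times in the other fraction (SD, n = 6), with ranges of 3.15 to 6.24 and 1.63 to 4.21. The ratio was larger in GFP-HI in 6 of 6 mice, by 1.32 to 1.93 times. It is given as a description with no test, since it is built from the same values as the fold changes above. Ccnd1 made up 18.7% of D cyclin transcripts in GFP-HI and 25.6% in GFP-LO, Ccnd2 72.7% and 66.6%, and Ccnd3 8.55% and 7.81%. The sum of the 3 was nearly level, 78.4 ± 12.4 and 77.1 ± 9.61 CPM per kilobase, and was higher in GFP-HI in 3 of 6 mice.

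**Figure D2:**
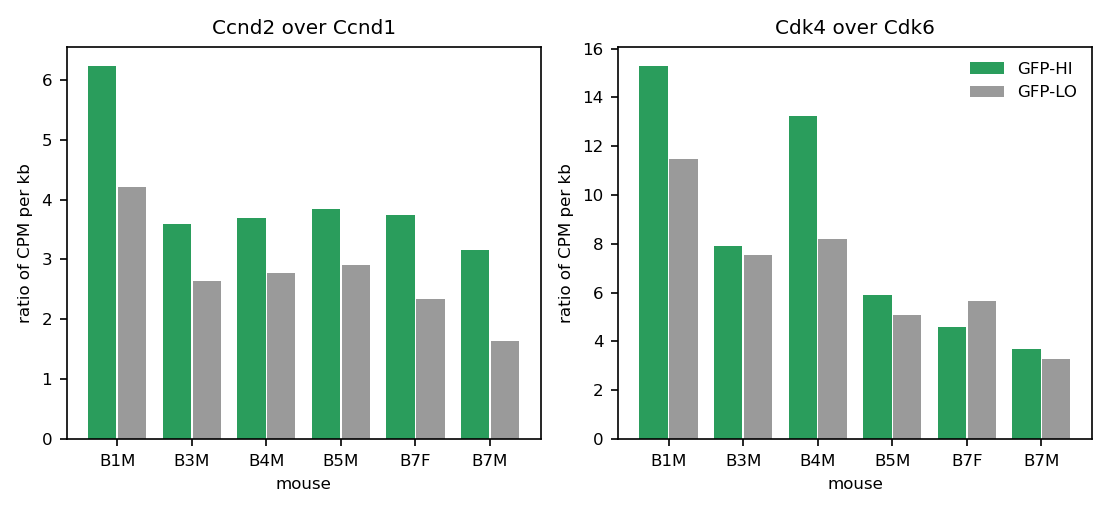
Ratio of Ccnd2 to Ccnd1 and of Cdk4 to Cdk6, in CPM per kilobase of exon, with side-by-side bars for the GFP-HI and GFP-LO library of each mouse. The cyclin ratio is larger in GFP-HI in 6 of 6 mice and the kinase ratio in 5 of 6, while the kinase ratio of B1M (15.3 and 11.5) lies far above that of B7M (3.71 and 3.29).

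Cdk4 (chr10, 127063603 to 127067282) encodes the kinase partner with more transcripts per kilobase of exon here. Its level in GFP-HI and GFP-LO cells was 88.0 and 113 CPM in B1M, 94.4 and 96.0 in B3M, 82.5 and 83.1 in B4M, 60.7 and 71.02 in B5M, 66.4 and 74.3 in B7F, and 58.3 and 63.0 in B7M. GFP-HI was the lower library in all 6 mice, but by under 2 CPM in B3M and B4M. The means were 75.0 ± 15.2 and 83.5 ± 18.5 CPM (SD, n = 6), and the log2 fold change was −0.15 ± 0.09 SE (95% interval −0.34 to 0.04, edgeR adjusted p = 0.771).

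Cdk6 (chr5, 3344312 to 3522225) encodes the kinase that pairs with the same cyclins, and its transcripts were fewer and varied more. GFP-HI and GFP-LO cells had 10.6 and 18.1 CPM in B1M, 21.9 and 23.4 in B3M, 11.4 and 18.6 in B4M, 18.8 and 25.6 in B5M, 26.5 and 24.2 in B7F, and 28.9 and 35.1 in B7M. GFP-HI was lower in 5 of 6 mice, all but B7F, the older animal. The means were 19.7 ± 7.58 and 24.2 ± 6.16 CPM (SD, n = 6), and the log2 fold change was −0.35 ± 0.17 SE (95% interval −0.71 to 0.01, edgeR adjusted p = 0.694). B7M had 2.30 times the mean Cdk6 of B1M, the widest spread between mice among the members, and B1M was the highest mouse for Cdk4. The ratio of Cdk4 to Cdk6 per kilobase accordingly ran from 3.71 in B7M to 15.3 in B1M within GFP-HI, with fraction means of 8.44 ± 4.77 and 6.87 ± 2.87 (SD, n = 6). The 2 kinases together came to 63.7 ± 9.85 CPM per kilobase in GFP-HI and 71.8 ± 12.0 in GFP-LO, lower in GFP-HI in 6 of 6 mice. Cdk4 made up most of this sum (55.8 and 62.0), so its direction largely repeats that of Cdk4 above.

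The same direction in all 6 mice was thus seen for 3 members, Ccnd2 higher and Ccnd1 and Cdk4 lower in GFP-HI. Among all tested genes 387 (3.30%) were higher in 6 of 6 mice and 305 (2.60%) were lower. The members were chosen with earlier results of these data known, so nothing is read from these counts.

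Rb1 (chr14, 73195502 to 73325791), the retinoblastoma tumour suppressor and the best measured of the pocket proteins, stood at nearly the same level in both fractions. GFP-HI and GFP-LO cells had 124 and 115 CPM in B1M, 139 and 123 in B3M, 114 and 117 in B4M, 112 and 104 in B5M, 85.3 and 110 in B7F, and 120 and 109 in B7M. It was higher in GFP-HI in 4 mice and lower in B4M and B7F, the latter giving the lowest value of all. The means were 115.5 ± 17.7 and 113.1 ± 6.69 CPM (SD, n = 6). The log2 fold change of 0.02 ± 0.09 SE had a 95% interval of −0.17 to 0.21 (edgeR adjusted p = 0.977), and it was −0.01 without B3M.

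Rbl1 (chr2, 157145894 to 157204534) encodes p107, the pocket protein whose gene is itself an E2F target in cycling cells. It had 122 and 78.9 CPM in B1M, 89.7 and 77.1 in B3M, 67.8 and 62.6 in B4M, 75.1 and 78.0 in B5M, 58.1 and 65.3 in B7F, and 80.4 and 81.7 in B7M, GFP-HI first. The fractions crossed, with 3 mice higher and 3 lower, and only B1M had a wide gap. The means were 82.2 ± 22.3 and 73.9 ± 7.95 CPM (SD, n = 6), the log2 fold change was 0.12 ± 0.11 SE (95% interval −0.12 to 0.36, edgeR adjusted p = 0.846), and it was 0.02 without B1M and −0.03 without B1M and B3M.

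The RefSeq sequence just upstream of the Rbl1 start (GRCm38.p6, chr2:157204535-157204594, minus strand) is shown because it carries letters of the E2F consensus type, in capitals, ending shortly before the transcript start.
Rbl1 upstream: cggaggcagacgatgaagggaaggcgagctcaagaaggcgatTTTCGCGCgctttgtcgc
The motifs searched on both strands of the 250 bases upstream were TTTCGCGC, TTTCCCGC, TTTGGCGC and TTTGCCGC, and 611 of 32851 RefSeq windows (1.86%) held at least 1 of them. Of the members, Ccnd3, Cdk4, Cdk6, Rbl1 and Rbl2 had entries, and the Rbl1 window alone had a match. A match of letters is a description and does not show binding.

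Rbl2 (chr8, 91070094 to 91123844) encodes p130, the pocket protein most linked to resting cells. It had 12.6 and 39.4 CPM in B1M, 47.8 and 44.1 in B3M, 33.6 and 38.6 in B4M, 38.1 and 38.6 in B5M, 39.1 and 34.2 in B7F, and 45.2 and 42.3 in B7M, GFP-HI first. A single library, GFP-HI of B1M, lay apart from the other 11, which ran from 33.6 to 47.8 CPM, and its value rested on 103 counts. The log2 fold change was −0.21 ± 0.21 SE (95% interval −0.66 to 0.23, edgeR adjusted p = 0.856) with B1M and 0.04 without it. Rbl2 shares 346 exonic bases (7.08%) with Aktip on the opposite strand.

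E2f4 (chr8, 105297663 to 105305370), the main repressor E2F of resting cells, was the least regular member. It had 37.2 and 23.0 CPM in B1M, 10.4 and 29.0 in B3M, 21.04 and 29.2 in B4M, 19.7 and 18.2 in B5M, 22.3 and 19.1 in B7F, and 17.5 and 21.3 in B7M, GFP-HI first. Both extremes were GFP-HI libraries with few detected genes, B1M at the top and B3M at the bottom. The means were 21.3 ± 8.84 and 23.3 ± 4.76 CPM (SD, n = 6), with a log2 fold change of −0.19 ± 0.24 SE (95% interval −0.70 to 0.32, edgeR adjusted p = 0.888) that was 0.06 without B3M.

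E2f5 (chr3, 14578671 to 14606309), its closest relative, was the scarcest member, with 24 to 106 counts per library. It ranged from 3.39 to 8.95 CPM in GFP-HI and from 5.49 to 9.74 CPM in GFP-LO, and was lower in GFP-HI in 5 of 6 mice. Its log2 fold change of −0.32 ± 0.31 SE had a 95% interval of −0.98 to 0.34 (edgeR adjusted p = 0.853), and it was −0.17 without B3M. Of its exonic bases 21 overlap a gene on the opposite strand.

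**Figure D3:**
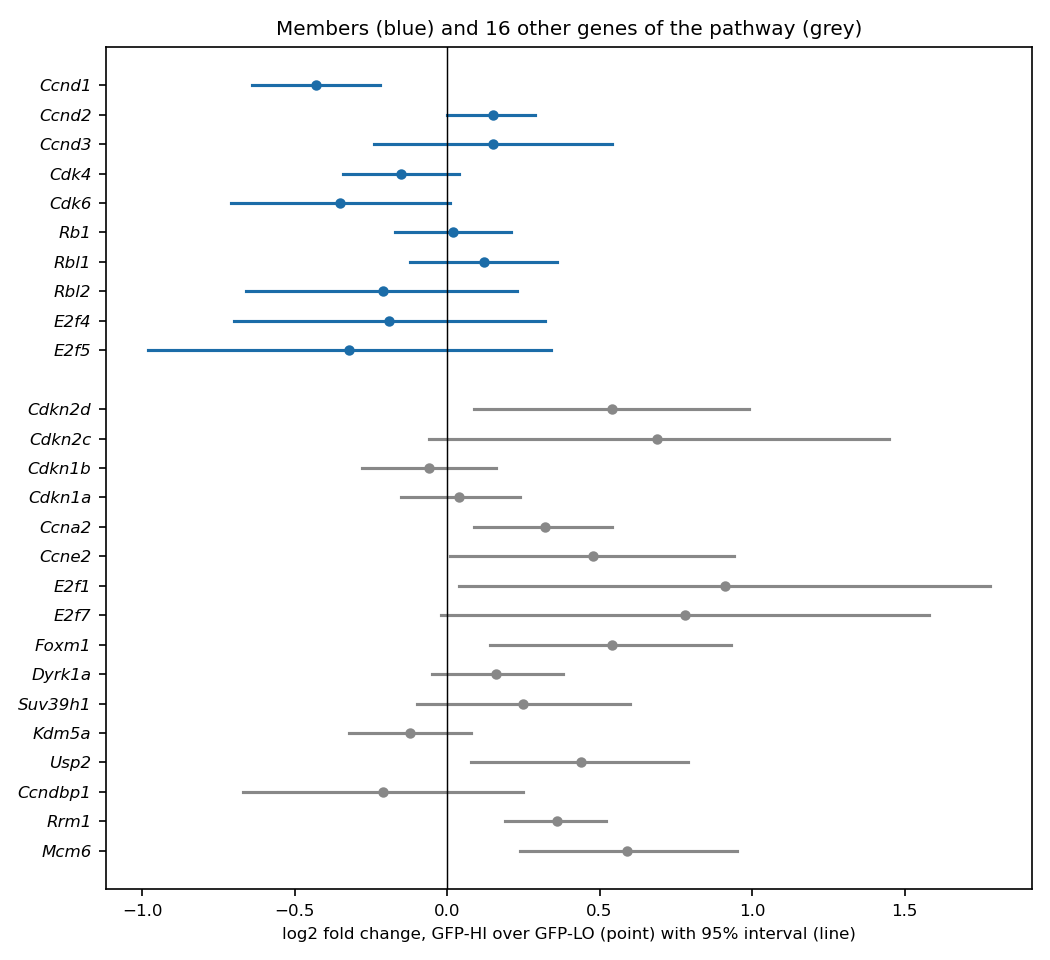
Log2 fold change, GFP-HI over GFP-LO, from the edgeR fit with mouse as a block, with lines for the 95% interval. The 10 genes are blue, and the 2 genes with the smallest p of each other pathway group are grey. Among the 10, the interval of Ccnd1 (−0.64 to −0.22) lies below 0, that of Ccnd2 starts at 0.00 and the other 8 include 0. Some grey intervals, such as that of Rrm1 (0.19 to 0.52), lie above 0. No gene shown passed the adjusted threshold.

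Without B1M and B3M the log2 fold changes were −0.46 for Ccnd1, 0.15 for Ccnd2, 0.07 for Ccnd3, −0.13 for Cdk4 and −0.31 for Cdk6. They were −0.04 for Rb1, −0.03 for Rbl1, 0.02 for Rbl2, −0.11 for E2f4 and −0.26 for E2f5. The values of Ccnd1, Ccnd2, Cdk4 and Cdk6 thus stayed within 0.04 of those from all 6 mice, and the 3 pocket protein genes all came to within 0.04 of 0. Their SEs in that fit were 0.10 for Rb1, 0.10 for Rbl1 and 0.13 for Rbl2, which leaves room for larger changes.

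Levels of different genes were compared per kilobase of exon. Cdk4 and Ccnd2 led, with 55.8 and 57.2 CPM per kilobase in GFP-HI and 62.0 and 51.6 in GFP-LO, and Cdk4 was above Ccnd2 in 8 of 12 libraries, so their order was not settled. Rb1 followed at 25.0 and 24.5, then Ccnd1 at 14.5 and 19.5, Rbl1 at 15.2 and 13.7, and E2f4 at 10.7 and 11.7. Cdk6 had 7.97 and 9.79, Rbl2 7.38 and 8.09, Ccnd3 6.61 and 5.95, and E2f5 3.23 and 3.98. Within each role the order held in 12 of 12 libraries: Ccnd2 over Ccnd1 over Ccnd3, Cdk4 over Cdk6, Rb1 over Rbl1 over Rbl2, and E2f4 over E2f5. Between roles, Ccnd2 was above Rb1 in 12 of 12 libraries, and Rb1 over Ccnd1, Ccnd1 over Rbl1, Rbl2 over Ccnd3 and Ccnd3 over E2f5 each held in 11 of 12. The order was loose for Rbl1 over E2f4 (9 of 12), E2f4 over Cdk6 (7 of 12) and Cdk6 over Rbl2 (7 of 12). The summed pocket protein level was 47.5 ± 6.73 against 46.2 ± 2.52 CPM per kilobase (SD, n = 6), higher in GFP-HI in 4 of 6 mice.

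**Figure D4:**
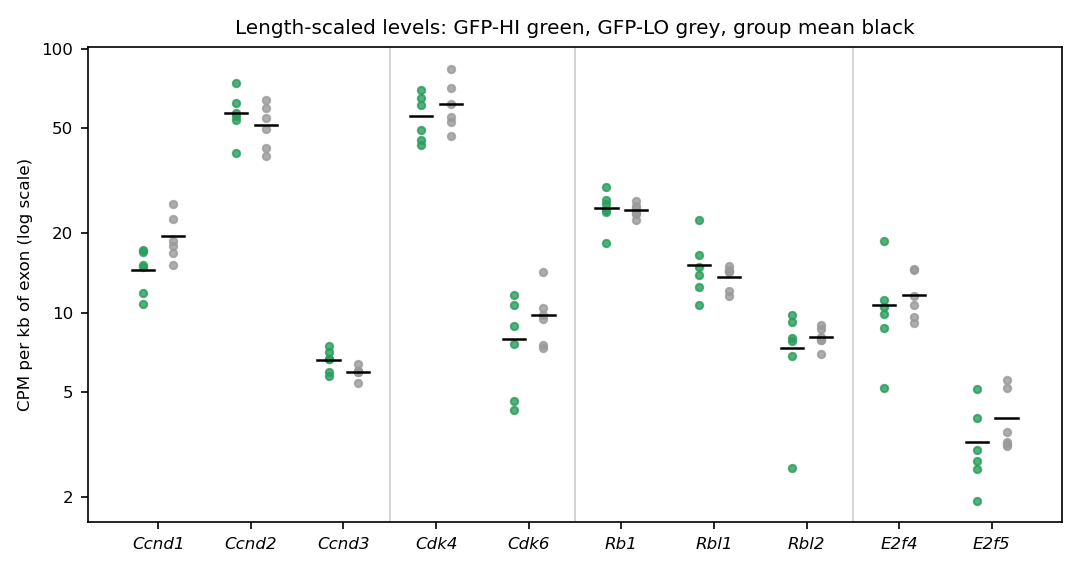
CPM per kilobase of exon (log axis) of the 10 genes in the 12 libraries, grouped by role (D cyclins, kinases, pocket proteins, E2F factors). Cdk4 and Ccnd2 overlap at the top, Rb1 lies below them, and E2f5 is lowest (means of 3.23 in GFP-HI and 3.98 in GFP-LO).

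The rest of the pathway was read from 58 genes, all of them tested, of which 0 were called in either direction by edgeR. At an unadjusted p under 0.05 there were 11, beside 848 of the 11719 tested genes. DESeq2 called 2 of them higher and 0 lower, beside 120 and 23 of all tested genes. It gave E2f1 and E2f7 no adjusted p, so these could not be called by it. The log2 fold change was positive for 41 and negative for 17, with a median of 0.17 beside −0.02 over all tested genes.

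Upstream of the kinases, the INK4 inhibitors, which block CDK4 and CDK6 directly, had 4 of 4 positive values with a median of 0.42 and 0 calls. Cdkn2d (p19) had 16.9 ± 7.87 CPM in GFP-HI against 11.2 ± 2.82 (SD, n = 6; log2 fold change 0.54, edgeR adjusted p = 0.608). Cdkn2c (p18) had 11.7 ± 5.43 and 7.04 ± 2.48 CPM (log2 fold change 0.69, edgeR adjusted p = 0.713). Each was higher in GFP-HI in 5 of 6 mice, and both changes were smaller without B1M and B3M (0.30 and 0.41). The CIP/KIP inhibitors, which bind several cyclin and kinase pairs, had 2 of 3 positive values and a median of 0.04. Of these Cdkn1b (p27) had a log2 fold change of −0.06 (edgeR adjusted p = 0.927) and Cdkn1a (p21) of 0.04 (edgeR adjusted p = 0.944). The third, Cdkn1c (p57), named so that the group is complete, varied widely, at 0 to 20.3 CPM in GFP-HI and a log2 fold change of 0.23 with a 95% interval of −1.44 to 1.91. Of the 6 genes of D cyclin turnover 2 were positive, with a median of −0.05. Among these Usp2, a deubiquitinase that stabilises cyclin D1, had 0.44 (edgeR adjusted p = 0.601) and Ccndbp1, which encodes a D cyclin binding protein, −0.21 (edgeR adjusted p = 0.861), or 0.38 and −0.33 without B1M and B3M.

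Beside the pocket proteins, the 8 genes of the MuvB core and its partners, which join p107 or p130 in the DREAM repressor and MYB or FOXM1 in activators, had 6 positive values and a median of 0.11. Foxm1, a mitotic transcription factor, had 46.1 ± 11.6 CPM in GFP-HI against 32.6 ± 10.2 (SD, n = 6; log2 fold change 0.54, edgeR adjusted p = 0.494), and Dyrk1a, the kinase that assembles DREAM, had 0.16 (edgeR adjusted p = 0.773). Each was higher in GFP-HI in 4 of 6 mice, and without B1M and B3M the log2 fold changes were 0.29 and 0.01. The 6 RB co-repressor genes were split, 3 positive and 3 negative, with a median of −0.01. Of them the histone methyltransferase gene Suv39h1 had 0.25 and the demethylase gene Kdm5a −0.12 (edgeR adjusted p = 0.79 and 0.818), or 0.13 and −0.15 without B1M and B3M.

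The other E2F and DP factors had 5 of 8 positive values and a median of 0.11. E2f1, an activator E2F and itself a target of the pathway, had 7.49 ± 4.74 CPM in GFP-HI against 3.59 ± 1.42 (SD, n = 6; log2 fold change 0.91, edgeR adjusted p = 0.665). E2f7, an atypical repressor E2F, was higher in GFP-HI in 6 of 6 mice at 7.82 ± 3.70 and 4.77 ± 2.75 CPM (log2 fold change 0.78, edgeR adjusted p = 0.694). Both genes had low counts, down to 19 and 10 in a library. The value of E2f1 was 0.59 without B1M and 0.45 without B1M and B3M, and that of E2f7 was 0.47 without B7F and 0.92 without B1M and B3M.

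Downstream, the G1/S cyclins and kinases had 5 of 8 positive values with a median of 0.06. Ccna2, the S-phase cyclin A2, had 117.3 ± 20.3 and 93.6 ± 10.01 CPM (SD, n = 6; log2 fold change 0.32, edgeR adjusted p = 0.47), and Ccne2, cyclin E2, had 16.3 ± 4.04 and 11.6 ± 2.21 CPM, higher in 6 of 6 mice (log2 fold change 0.48, edgeR adjusted p = 0.679). Without B1M and B3M these were 0.27 and 0.55, and Ccne2 was 0.30 without B7F. Of the E2F targets of the S phase 14 of 15 were positive (46.9% of all tested genes), with a median of 0.34 and 0 calls. The edgeR unadjusted p was under 0.05 for 5 of the 15. Not every positive value held across mice: Mcm3, at 0.06 and named for this reason, was lower in GFP-HI in 5 of 6. Rrm1, the large subunit of ribonucleotide reductase, had 128.6 ± 18.9 CPM in GFP-HI and 101.2 ± 19.8 in GFP-LO and was higher in 6 of 6 mice (log2 fold change 0.36 ± 0.08 SE, edgeR adjusted p = 0.0733). Its adjusted p was 0.00771 with DESeq2, 0.0405 without B1M and 0.0317 without B1M and B3M, but 0.118 with no filter and 0.147 to 0.308 when any other mouse was left out. Mcm6, a subunit of the replicative helicase, had 40.1 ± 12.1 and 27.0 ± 9.20 CPM (log2 fold change 0.59, edgeR adjusted p = 0.242), higher in 5 of 6 mice. Its adjusted p was 0.0479 with DESeq2 and 0.0384 with no filter, but 0.176 without B1M and B3M and 0.134 to 0.685 when a single mouse was left out. Without the mouse block it was 0.999 for Rrm1 and Mcm6 alike.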

How the data were processed

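The authors deposited a single table of raw read counts over 23420 genes and 12 libraries. Tools named in the submitters' processing notes are featureCounts, DESeq2, FastQC, bcl2fastq 2.20.0 and R 3.4.1, with mm10 and GRCm38 as builds. Per the labels' protocols, each library came from 200 to 1000 cells (NuGEN SoLo kit). No aligner, strand setting or rule for multiply matching reads is given here, so overlapping genes and near-identical copies are uncertain.

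The test used edgeR 4.0.16 in R 4.3.3 (filter by group, minimum count 10, minimum total 15; TMM; robust quasi-likelihood test, two-sided). Mouse was a block: paired libraries carry 1 animal code in their titles, and deviations from the group means correlated by 0.23 to 0.49 within a mouse and by at most 0.26 between mice. DESeq2 1.42.0, RLE scaling, no filter, no Rn45s, no block and leaving out mice were alternatives. The labels name no sequencing batch. All members are named, and of each other pathway group the 2 genes with the smallest p. Members and lists were chosen with earlier results of these data known.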

Additional observations from a re-analysis of the deposited data

How the results depend on the processing

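Over the alternatives, 312 fold changes of 26 named genes were computed, 7 of which changed sign and 9 of which passed the threshold only under an alternative. Members called lower numbered 1 with DESeq2, with no filter and without B1M and B3M, Ccnd1 each time, and 0 to 1 when a mouse was left out (1 without B1M). Pathway genes called higher numbered 2 with DESeq2 (Rrm1 and Mcm6), 1 with no filter (Mcm6, adjusted p 0.0384), 1 without B1M and B3M (Rrm1), and 0 to 1 when a mouse was left out. Without the block that pairs libraries by mouse, 0 genes of the whole table were called in either direction, and Ccnd1 had an adjusted p of 0.999 with the log2 fold change still −0.43. For all genes, calls higher and lower were 120 and 23 with DESeq2, 127 and 45 with no filter, 117 and 34 without B1M and B3M, and 29 to 81 and 2 to 14 when a mouse was left out. Without B1M and B3M the sign changed for Rb1 (−0.04), Rbl1 (−0.03) and Rbl2 (0.02). Leaving out mice in turn gave −0.01 to 0.10 for Rb1, −0.30 to 0.04 for Rbl2, −0.37 to 0.06 for E2f4 and −0.01 to 0.11 for Cdkn1a. The cause of these shifts was not tested. Levels depend on the scale: on totals without Rn45s and with no TMM factors every member's mean was higher (Ccnd1 in GFP-HI 93.9 in place of 55.1 CPM), and 20 of 40 level values moved by more than 1 SD, all on that scale. Counts per library were lowest for E2f5, and the parts of depth and of spread between mice in its interval were not separated.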
